A study of Mus musculus with 32 samples.

Results

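The clustered protocadherin genes of the mouse lie side by side on chromosome 18, and the peaks described here are all those that overlap 1 window of 940 kb over them, from 37.08 to 38.02 Mb in build mm9. The window holds 332 of the 387563 peaks in the 26 peak lists of the series. It was chosen on measured values, because the H3K4me3 peak with the highest fold enrichment among those absent from wild-type cells and present in both knockouts lies in it. The H3K4me3 difference between knockout and wild-type cells in the window is therefore a description and carries no test. At the edges, the first peak inside was an H3K4me3 peak of Taf5l-KO cells at chr18:37089826-37090318 (fold enrichment 4.71), and the last was an RNAP peak of Taf5l-KO cells at chr18:38019939-38020619 (4.53), which crosses the edge. Just outside lay an RNAP-ser5 peak of Taf6l-KO cells that ended 61716 bp before the window (3.60) and an RNAP-ser2 peak of Taf5l-KO cells that began 346 bp after it (3.96).

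Clustered protocadherins are cell-surface adhesion proteins, best known from neurons, where each cell expresses its own combination of them. In the alpha and gamma clusters each variable exon has its own promoter and is spliced to constant exons shared by its cluster, whereas the beta genes are single-exon genes. H3K4me3, trimethylated lysine 4 of histone H3, is found at promoters that are active or poised, H3K9ac is an acetylation mark of active promoters, and RNA polymerase II carries phosphorylated serine 5 early and serine 2 late in transcription. A gene table of another build, GRCm38.p6, names 14 protein-coding Pcdha, 22 Pcdhb and 21 Pcdhg genes in the cluster. Along the chromosome it lists them in the order Pcdha, Pcdhb, Pcdhg, with Slc25a2 and Taf7 between the Pcdhb and Pcdhg genes and Diaph1 after them. Its positions were not carried over to mm9, and peaks are therefore given by position, with no gene named for them. Peaks called those of the cluster below are all peaks of the window. They may belong to the other genes listed as well as to protocadherins.

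The cells were J1 mouse embryonic stem cells grown in serum with LIF. Chromatin immunoprecipitation followed by sequencing had been done in wild-type cells and in Taf5l-KO and Taf6l-KO cells for H3K4me3, H3K9ac, RNA polymerase II in total (RNAP) and phosphorylated on serine 5 (RNAP-ser5) or serine 2 (RNAP-ser2), Oct4 and Myc. TAF5L and TAF6L are subunits of SAGA-type coactivator complexes. Tagged TAF5L and TAF6L (TAF5L-FB and TAF6L-FB, 2 lines each) and BirA, the biotin ligase control, were pulled down with streptavidin from cells labelled wild-type. The file headers name 1 input per knockout, from line B2 for Taf5l and A12 for Taf6l, so each knockout may stand for 1 line. The targeted genes themselves, and marker genes of the cells, were not analysed here. With 1 library per antibody and genotype there are no replicates and no test between genotypes. Unique tags ranged from 8886529 to 15136528 in the H3K4me3 libraries and from 1702363 to 15865460 in the polymerase libraries. The shallowest was RNAP-ser5 in Taf6l-KO cells, and the deepest polymerase library was RNAP in Taf5l-KO cells. The fold enrichment is the authors' own value for each peak, a ratio of its pileup to the background. It serves only to describe or rank peaks within 1 list, and values of different lists stand side by side with no direction drawn. Where 3 values follow each other with no genotype named, they stand in the order wild-type, Taf5l-KO, Taf6l-KO.

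H3K4me3 gave more peaks in the cluster than any other single antibody, and at a density well above that of the chromosome. Wild-type cells had 54 H3K4me3 peaks in the window, Taf5l-KO cells 54 and Taf6l-KO cells 49. This is 57.4, 57.4 and 52.1 peaks per Mb, beside 10.8, 11.3 and 10.1 over chromosome 18. The stretches of equal length on either side held fewer in every genotype, with 27 and 34 peaks in wild-type, 24 and 26 in Taf5l-KO and 23 and 27 in Taf6l-KO cells. The H3K4me3 peaks of the window were narrow and mostly weak for their lists. Their median width was 417 bp in wild-type cells (range 132 to 2551), 447 bp in Taf5l-KO cells (130 to 3950) and 474 bp in Taf6l-KO cells (161 to 2335), whereas the medians of the whole lists were 788, 787 and 785 bp. Their median fold enrichment was 4.65, 5.22 and 4.85, beside 5.57, 6.28 and 6.52 for the lists. A −log10 q of at least 5 was reached by 17 of the 54 wild-type peaks (31.5%, exact 95% interval 19.5 to 45.6), against 53.7% of that list. In Taf5l-KO cells 25 of 54 reached it (46.3%, 32.6 to 60.4, against 62.0%), and in Taf6l-KO cells 23 of 49 did (46.9%, 32.5 to 61.7, against 61.7%). These exact intervals, like all those that follow, cover counting error only, and peaks near each other share their surroundings.

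**Figure D1:**
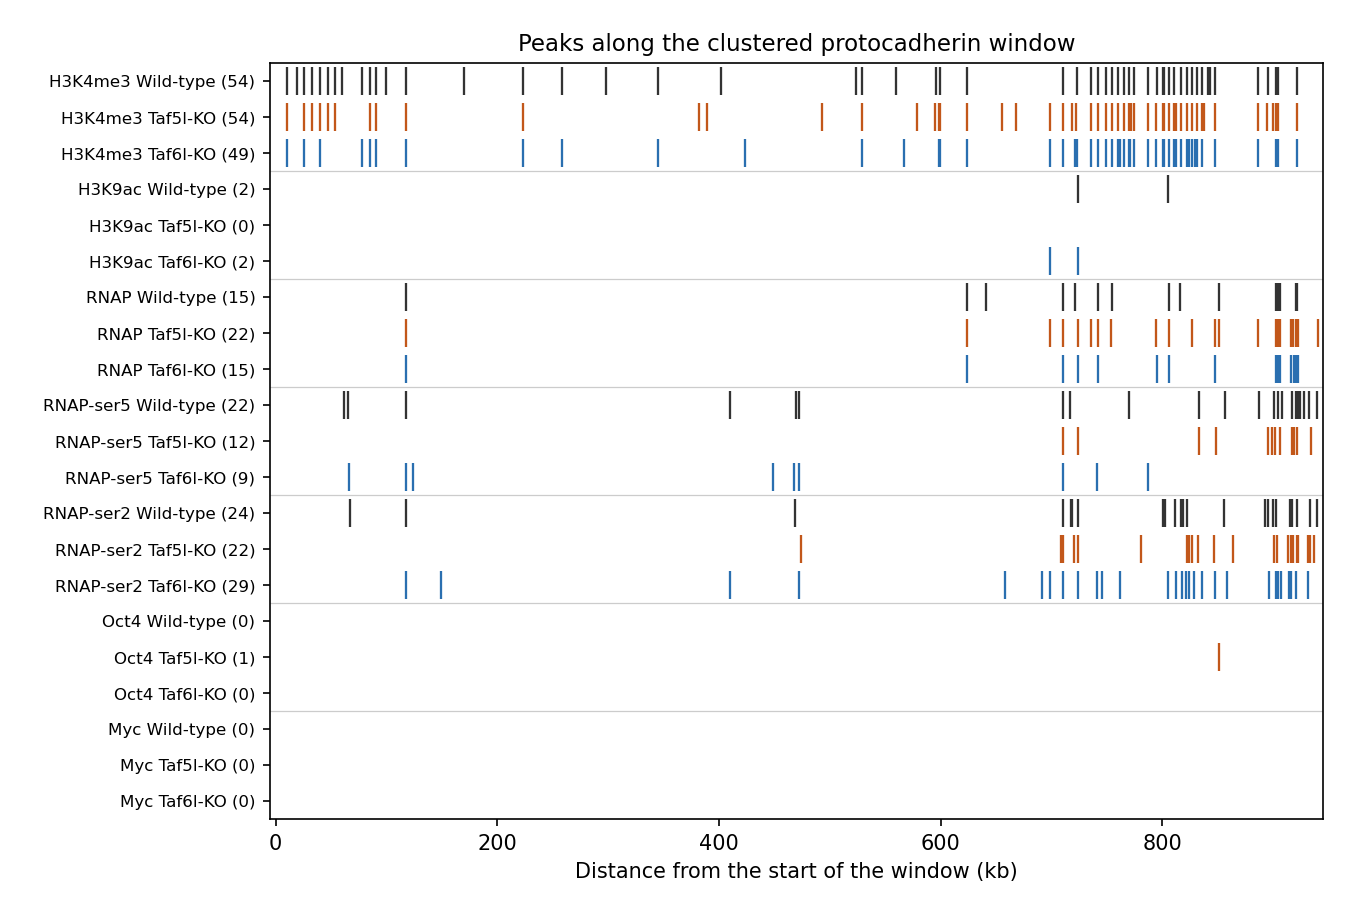
Peaks of 7 antibodies in 3 genotypes along the 940 kb window. Each vertical line is the midpoint of 1 peak, the horizontal axis is the distance from the window start in kb, and the number of peaks stands in brackets. H3K4me3 peaks form a run at the start, are sparse in the middle and dense near the end, where most polymerase peaks also lie.

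Each of the other antibodies gave fewer peaks in the cluster than H3K4me3. RNAP gave 15 peaks in wild-type, 22 in Taf5l-KO and 15 in Taf6l-KO cells, RNAP-ser5 gave 22, 12 and 9, and RNAP-ser2 gave 24, 22 and 29. These counts follow lists of very different lengths, such as 45366, 22190 and 17000 RNAP-ser5 peaks. The density of RNAP peaks was 16.0, 23.4 and 16.0 per Mb in the window, beside 10.3, 6.88 and 8.80 over chromosome 18. For RNAP-ser5 it was 23.4, 12.8 and 9.57 beside 15.8, 7.77 and 6.22, and for RNAP-ser2 25.5, 23.4 and 30.9 beside 13.8, 11.2 and 14.1. So all 3 polymerase forms were denser here than over the chromosome. Unlike H3K4me3, every polymerase list but RNAP-ser5 in Taf6l-KO cells had fewer peaks here than in the stretch of equal length before the window. Only wild-type RNAP and wild-type RNAP-ser5 also had fewer than in the stretch after it. RNAP had 25 and 17 peaks before and after the window in wild-type, 25 and 15 in Taf5l-KO and 23 and 13 in Taf6l-KO cells. RNAP-ser2 had 43 and 21, 33 and 19, and 33 and 17. RNAP-ser5 had 44 and 24, 27 and 12, and 8 and 6. A −log10 q of at least 5 was reached by 2 RNAP peaks of the window in wild-type (13.3%, 1.66 to 40.5), 3 in Taf5l-KO (13.6%, 2.91 to 34.9) and 4 in Taf6l-KO cells (26.7%, 7.79 to 55.1), against 27.3%, 35.0% and 40.3% of the lists. For the phosphorylated forms such peaks were rare in the lists as well. They were 0, 0 and 1 of the RNAP-ser5 peaks, against 1.65%, 6.17% and 13.9% of the lists, and 0, 1 and 2 of the RNAP-ser2 peaks, against 4.34%, 4.29% and 11.8%. Median fold enrichment of RNAP was 4.13, 4.37 and 4.54 in the window and 4.35, 4.76 and 4.95 in the lists. That of RNAP-ser5 was 3.37, 4.20 and 4.04 beside 3.51, 4.08 and 3.96, and that of RNAP-ser2 3.70, 3.69 and 3.90 beside 3.80, 3.79 and 3.68. The phosphorylated forms were thus on both sides of their lists' medians. H3K9ac gave 2 peaks in wild-type cells, none in Taf5l-KO cells and 2 in Taf6l-KO cells, from lists of 4131, 110 and 898 peaks. Oct4 had 1 peak, in Taf5l-KO cells, and Myc had none in any genotype. Neither line of TAF5L-FB, neither line of TAF6L-FB and not BirA had a peak in the window. Their nearest peaks were 1 of TAF6L-FB line 1 at chr18:38092245-38092572 (fold enrichment 3.14) and 1 of TAF5L-FB line 1 at chr18:38092333-38092649 (3.87), 72.2 and 72.3 kb beyond the end. The TAF5L-FB lists held only 136 and 7 peaks and those of TAF6L-FB 1140 and 628, so an empty window says little about binding.

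Along the cluster the H3K4me3 peaks fell into a run, a sparse stretch and a dense stretch. Joining overlapping H3K4me3 peaks of the 3 genotypes gave 72 places. The division into the first 120 kb, the next 560 kb and the last 260 kb was drawn after the values were seen. The first 120 kb held 13 places with a median spacing of 7.37 kb (5.52 to 17.9). All 13 had a wild-type peak, 9 had a Taf5l-KO peak and 7 had a Taf6l-KO peak. The run was uniformly weak in wild-type cells, where fold enrichments ranged from 3.44 to 5.39 and none of the peaks reached a −log10 q of 5. In Taf5l-KO cells they ranged from 3.69 to 5.94 and in Taf6l-KO cells from 3.51 to 7.40. The peaks with the highest value in either knockout were both at the last place of the run, chr18:37197477-37197927, which stood at 4.23 in wild-type, 5.94 in Taf5l-KO and 7.40 in Taf6l-KO cells. Of the 13 places, 6 were listed in all 3 genotypes, 3 in wild-type and Taf5l-KO cells, 1 in wild-type and Taf6l-KO cells and 3 in wild-type cells only.

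The middle 560 kb held 21 places at a median spacing of 22.5 kb, with up to 69.8 kb between neighbours. It had 12, 12 and 9 H3K4me3 peaks, and only 4 of its places were listed in all 3 genotypes. Of the others, 5 were listed in wild-type cells only, 6 in Taf5l-KO cells only and 2 in Taf6l-KO cells only. The strongest wild-type peak of this stretch was at the place chr18:37703224-37703962, with H3K4me3 fold enrichments of 7.62, 7.56 and 4.65. RNAP peaks lay at this place in all 3 genotypes, at 4.14, 6.80 and 4.54. It was the only place of the middle stretch with an RNAP peak in more than 1 genotype, as the other RNAP peak there was in wild-type cells only, at chr18:37720614-37720852 (3.81).

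The last 260 kb held 38 of the 72 H3K4me3 places, at a median spacing of 4.42 kb, and most of the strong ones. It had 29 wild-type, 33 Taf5l-KO and 33 Taf6l-KO peaks, of which 16, 21 and 21 reached a −log10 q of at least 5. Here 26 of the 38 places were listed in all 3 genotypes. Median fold enrichment was 5.69, 6.15 and 6.01, and median width 714, 640 and 610 bp. Polymerase peaks were also gathered in it, with 12 of 15, 20 of 22 and 13 of 15 RNAP peaks, and 21 of 24, 21 of 22 and 24 of 29 RNAP-ser2 peaks. RNAP-ser5 had 16 of 22 peaks there in wild-type and 12 of 12 in Taf5l-KO cells, but 3 of 9 in Taf6l-KO cells, the shallowest library.

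**Figure D2:**
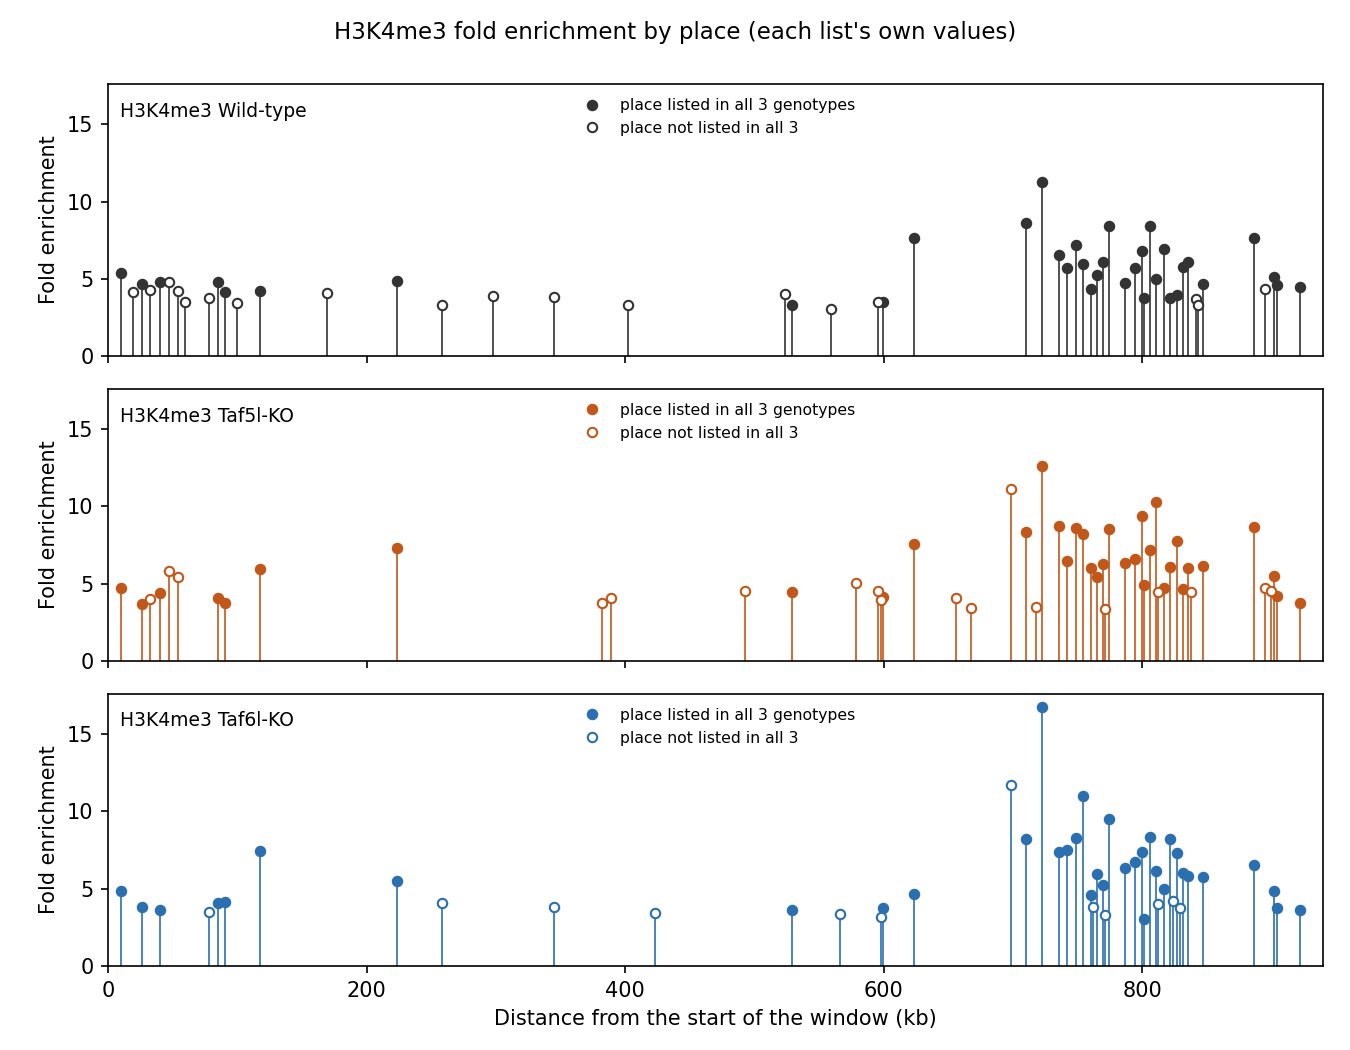
Fold enrichment (vertical axis, each list's own values) of H3K4me3 at the 72 places, by distance from the window start in kb, with 1 panel per genotype. Where a place holds several peaks of a list, the highest is drawn. Filled circles are places listed in all 3 genotypes and open circles the others. The tall open circle near 700 kb, at 11.1 in Taf5l-KO and 11.7 in Taf6l-KO cells, has no counterpart in the wild-type panel.

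The highest H3K4me3 fold enrichment of the cluster was, in every genotype, at the place chr18:37800609-37804606, in the last stretch. In wild-type cells the H3K4me3 peak ran from 37802261 to 37804479, over 2219 bp, with a fold enrichment of 11.3. In Taf5l-KO cells 1 peak of 3950 bp covered 37800609-37804558, at 12.6. In Taf6l-KO cells the main peak was 2281 bp wide, at 37802218-37804498 (16.8), with a second of 3.45 at 37800847-37801595. Each main peak stood high in its list, above 93.4%, 92.6% and 98.6% of the peaks. H3K9ac was listed here in wild-type cells (37803396-37804379, 5.26) and Taf6l-KO cells (37803614-37804308, 6.02) and not in Taf5l-KO cells. The −log10 q values of these H3K9ac peaks were 3.33 and 3.39. RNAP had a peak near the H3K9ac peak in Taf5l-KO cells (7.07) and Taf6l-KO cells (6.90), whereas the wild-type RNAP peak of this place lay at 37801352-37801739 (3.17). RNAP-ser2 was listed in all 3 genotypes, at 4.18, 3.29 and 4.19, and RNAP-ser5 in Taf5l-KO cells, at 4.75.

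Joining the peaks of all antibodies gave 123 places, of which 62 held a single peak and 7 had 4 or more antibodies in a genotype. The place at chr18:37789356-37790989 had H3K4me3 and all 3 polymerase forms in every genotype. Its H3K4me3 fold enrichments were 8.59, 8.37 and 8.19, and its RNAP values were 7.64, 4.53 and 7.51. RNAP-ser5 stood at 3.79, 3.92 and 6.20 there, and RNAP-ser2 at 4.65, 3.72 and 7.16. This was the strongest RNAP peak of the cluster in wild-type and in Taf6l-KO cells. At the end of the first run, chr18:37196907-37197942 had H3K4me3 and all 3 polymerase forms in wild-type and Taf6l-KO cells, and H3K4me3 and RNAP in Taf5l-KO cells. RNAP-ser5 stood at 3.11 in wild-type and 4.69 in Taf6l-KO cells, and RNAP-ser2 at 3.41 and 5.74. RNAP stood at 7.19, 3.88 and 7.29, so the run of 13 H3K4me3 places had RNAP at 1 of them. At chr18:37821337-37822156, H3K4me3 (5.69, 6.50 and 7.48) and RNAP (4.54, 4.01 and 3.91) were listed in all 3 genotypes, and RNAP-ser5 (4.04) and RNAP-ser2 (3.90) in Taf6l-KO cells only.

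The other 3 such places lay toward the end of the window. At chr18:37925709-37928872 a broad H3K4me3 region (4.68, 6.15 and 5.75) was listed alone in wild-type cells. In Taf5l-KO cells it came with RNAP (4.90), RNAP-ser5 (4.99) and RNAP-ser2 (3.37), and in Taf6l-KO cells with RNAP (4.75) and RNAP-ser2 (3.37). At chr18:37981559-37985153 and chr18:37998417-38003014, H3K4me3 and all 3 polymerase forms were listed in wild-type and in Taf5l-KO cells, and all but RNAP-ser5 in Taf6l-KO cells. The second of these held the strongest RNAP-ser5 peak of wild-type cells in the cluster, at 37999815-38001512 (4.74), and the strongest RNAP-ser2 peak of Taf5l-KO cells, at 38001102-38001577 (5.56). H3K4me3 was weak there, at 4.47, 3.76 and 3.62. The last 40 kb of the window held 3 H3K4me3 peaks per genotype but 5, 8 and 7 RNAP peaks and 7, 10 and 7 RNAP-ser2 peaks. RNAP-ser5 had 10, 6 and 0 peaks in it.

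The strongest polymerase peaks not yet given by their own positions lay partly at places described above and partly elsewhere in the cluster. RNAP-ser2 of wild-type cells was highest at 37995933-37996108 (5.22) and 37896323-37897006 (4.89), and RNAP-ser2 of Taf5l-KO cells had its second highest value at 37997516-37997675 (4.89). The second highest RNAP-ser5 peak of wild-type cells was at 37980862-37981002 (4.25). In Taf5l-KO cells the RNAP-ser5 peaks with the highest values were at 37981559-37982542 (5.14) and 37927969-37928165 (4.99), each within a place described above. In Taf6l-KO cells the highest RNAP-ser5 peak was at 37789946-37790837 (6.20), also within a place described above. The next was in the sparse stretch, at 37548012-37548188 (4.79), where no other list had a peak. Most of these lay within the last 260 kb, where the H3K4me3 places are dense.

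Taken over peaks of any strength, fewer H3K4me3 peaks of the cluster overlapped RNA polymerase II than in the lists at large. In wild-type cells 8 of 54 overlapped an RNAP peak (14.8%, 6.62 to 27.1), against 48.5% of the list. In Taf5l-KO cells 15 of 54 did (27.8%, 16.5 to 41.6), against 44.5%, and in Taf6l-KO cells 11 of 49 did (22.4%, 11.8 to 36.6), against 58.5%. The list's value was above the interval in all 3 genotypes. With any of the 3 polymerase forms the shares were 15 of 54 (27.8%, 16.5 to 41.6), 18 of 54 (33.3%, 21.1 to 47.5) and 17 of 49 (34.7%, 21.7 to 49.6), against 54.3%, 49.3% and 63.5% of the lists. Weak H3K4me3 peaks overlap RNAP less often in the lists too, so the strong ones were counted apart. Of the peaks with a −log10 q of at least 5, RNAP overlapped 5 of 17 in wild-type (29.4%, 10.3 to 56.0) and 8 of 23 in Taf6l-KO cells (34.8%, 16.4 to 57.3), against 72.3% and 80.7% of such peaks in the lists. In Taf5l-KO cells it overlapped 13 of 25 (52.0%, 31.3 to 72.2) against 64.1%, which is inside the interval. With any polymerase form, the strong peaks gave 58.8% in wild-type (32.9 to 81.6, list 75.2%) and 52.0% in Taf5l-KO cells (31.3 to 72.2, list 68.6%), both list values being inside. In Taf6l-KO cells they gave 47.8% (26.8 to 69.4), and the list's 83.3% is above. Peaks of the cluster were also narrower than those of the lists, and the part of width in these overlaps was not tested. Read the other way, the share of RNAP peaks of the cluster that overlapped H3K4me3 had the list's value inside its interval in every genotype. These were 8 of 15 in wild-type (53.3%, 26.6 to 78.7, list 55.2%), 15 of 22 in Taf5l-KO (68.2%, 45.1 to 86.1, list 71.1%) and 11 of 15 in Taf6l-KO cells (73.3%, 44.9 to 92.2, list 66.1%).

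**Figure D3:**
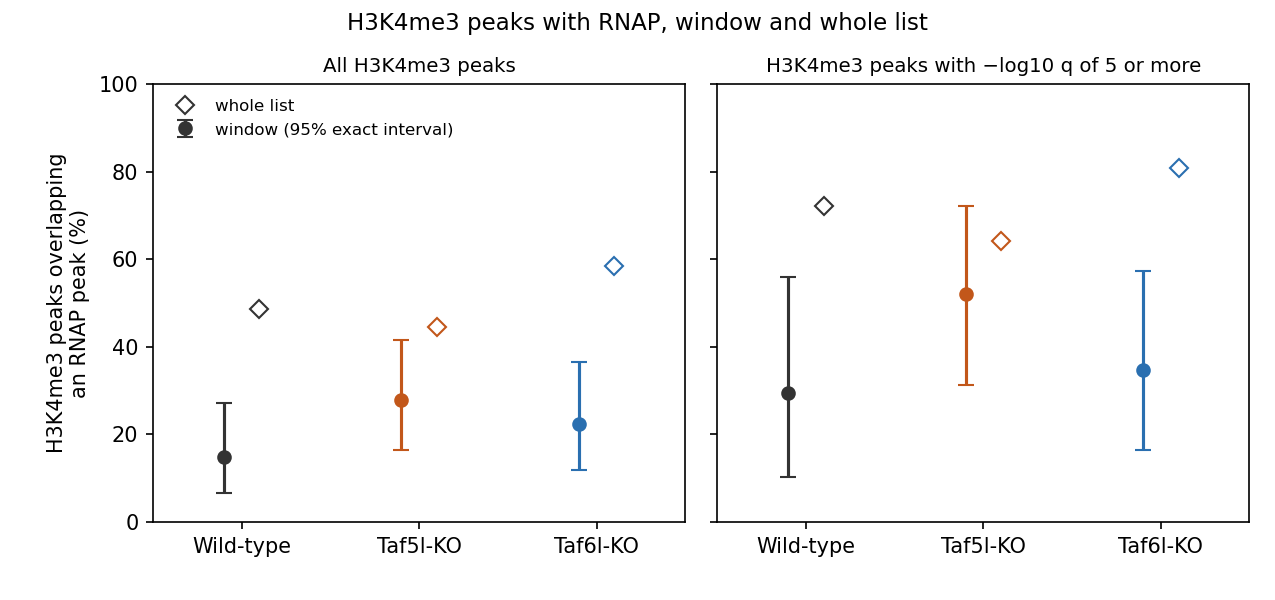
Share of H3K4me3 peaks that overlap an RNAP peak of the same genotype (vertical axis, %), for all peaks on the left and for peaks with a −log10 q of at least 5 on the right. Filled circles with bars are the window and its exact 95% interval, open diamonds the whole list. On the right, the Taf5l-KO diamond (64.1%) lies inside the bar and the others lie above theirs.

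H3K9ac accompanied few H3K4me3 peaks of the cluster, and the list's value was inside the interval in every genotype. It overlapped 2 of 54 in wild-type (3.70%, 0.452 to 12.7, list 12.2%), 0 of 54 in Taf5l-KO (at most 6.60% by the exact interval, list 0.333%) and 2 of 49 in Taf6l-KO cells (4.08%, 0.498 to 14.0, list 2.97%). The second H3K9ac peak of wild-type cells, besides that at the strongest place, was at chr18:37885425-37885767 (5.23). H3K4me3 and RNAP were listed there in all 3 genotypes, at 8.41, 7.17 and 8.33 for H3K4me3 and at 4.93, 4.77 and 5.95 for RNAP. Since the knockout H3K9ac lists held 110 and 898 peaks beside 4131 in wild-type cells, most wild-type peaks had no partner anywhere. In the cluster 2 of 2 had none in Taf5l-KO cells, where 97.5% of the list had none, and 1 of 2 had none in Taf6l-KO cells, where 80.8% had none. One of the 2 H3K9ac peaks of Taf6l-KO cells was new, against 10.2% of that list.

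A wild-type peak is called lost where no knockout peak overlaps it by at least 1 bp, and a knockout peak new where no wild-type peak overlaps it. Neither shows that the signal itself was absent. For H3K4me3, 13 of 54 wild-type peaks were lost in Taf5l-KO cells (24.1%, 13.5 to 37.6), against 15.4% of the list, and 15 of 54 in Taf6l-KO cells (27.8%, 16.5 to 41.6), against 19.2%. New were 13 of 54 Taf5l-KO peaks (24.1%, 13.5 to 37.6), against 14.2%, and 10 of 49 Taf6l-KO peaks (20.4%, 10.2 to 34.3), against 10.5%. Since the window was chosen on this contrast, nothing is read from these shares. The lost peaks were weak ones, with fold enrichments of 3.07 to 4.14 for Taf5l-KO cells and of 3.07 to 4.80 for Taf6l-KO cells. None of the 17 wild-type peaks with a −log10 q of at least 5 was lost in either knockout (exact upper bound 19.5%), and in the list 0.351% and 0.437% of such peaks were lost. In both knockouts 10 of 54 were lost (18.5%, 9.25 to 31.4), against 12.3% of the list.

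**Figure D4:**
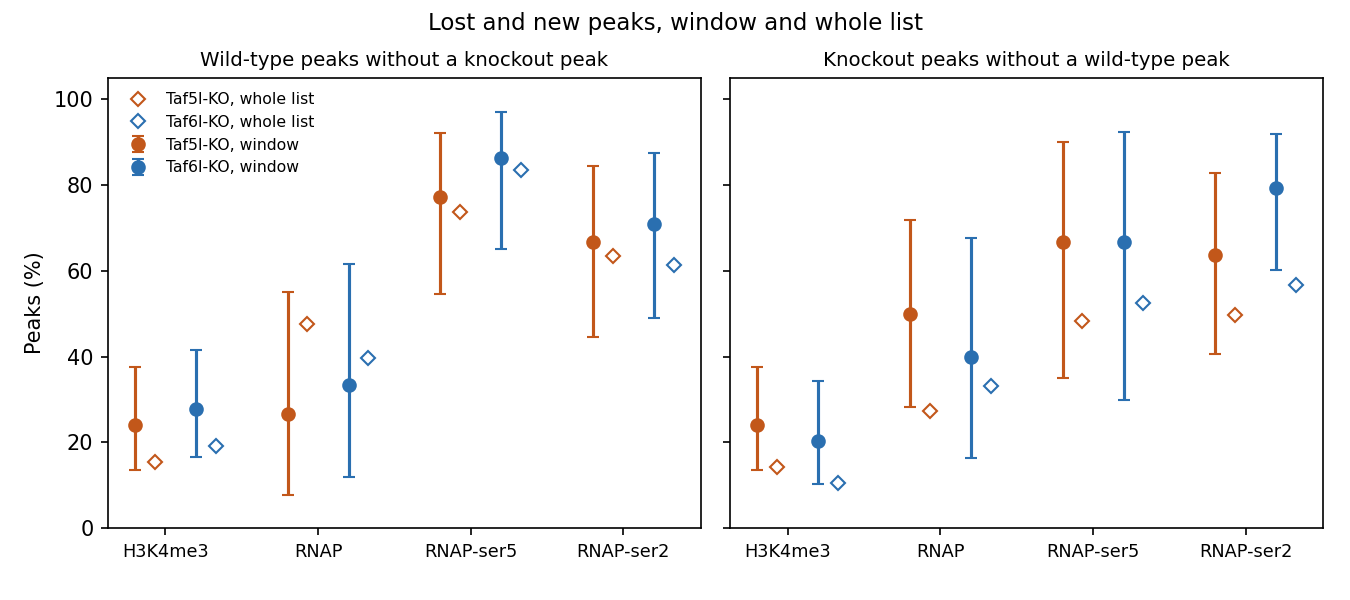
Percent of wild-type peaks with no knockout peak (left) and of knockout peaks with no wild-type peak (right), for H3K4me3 and the 3 polymerase antibodies. Filled circles with bars are the window and its exact 95% interval, open diamonds the whole list, in 1 colour per knockout. Most diamonds lie inside the bars; for new peaks, those of RNAP in Taf5l-KO cells (27.3%) and of RNAP-ser2 in Taf6l-KO cells (56.7%) lie below.

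The 10 H3K4me3 places found in wild-type cells only lay in all 3 stretches, with 3, 5 and 2 of them. The 6 with the highest fold enrichment were chr18:37099051-37099306 (4.14), 37249725-37249875 (4.08), 37603993-37604141 (4.03), 37377661-37377857 (3.88), 37921408-37921539 (3.67) and 37139826-37139977 (3.52). No antibody but H3K4me3 had a peak at them. Over the 72 places, 36 were listed in all 3 genotypes (50.0%, 38.0 to 62.0), against 65.8% of all H3K4me3 places, and 4 in both knockouts only (5.56%, 1.53 to 13.6), against 4.08%. These shares too come from the contrast on which the window was chosen, and nothing is read from them.

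The 4 places listed in both knockouts only differed widely in strength. The leading one was chr18:37778083-37779358, with H3K4me3 over 1067 bp in Taf5l-KO cells (37778185-37779251, fold enrichment 11.1) and over 1276 bp in Taf6l-KO cells (37778083-37779358, 11.7). These were the second highest H3K4me3 values of the cluster in each knockout. By the lower of its 2 values it ranked first among the 1556 H3K4me3 places of the genome listed in both knockouts only, which is how the window was chosen. Of the next ones, 1 on chromosome Y stood at 10.8 and 10.7, and 1 on chromosome 13 at 9.86 and 8.53. The nearest wild-type H3K4me3 peak was 10.5 kb away, at 37789866-37790802 (8.59). The other 3 places were weak, with 4.46 and 3.99 at chr18:37892449-37892785, 3.37 and 3.31 at chr18:37850986-37851673, and 3.98 and 3.16 at chr18:37678054-37678269 in Taf5l-KO and Taf6l-KO cells. They ranked 539, 1282 and 1436 of the 1556.

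Other antibodies also had peaks at the leading new place, and only in knockout cells. They did not enter the choice of the window, but they are not independent of H3K4me3. RNAP overlapped 44.5% of the H3K4me3 peaks in the Taf5l-KO list and 58.5% in the Taf6l-KO list, and H3K9ac 2.97% in the latter. The libraries of a knockout also share 1 input, so these peaks are a description only. At the leading new place RNAP was listed in Taf5l-KO cells (37778238-37778685, 5.47). H3K9ac was listed in Taf6l-KO cells (37778617-37778924, 5.27), as was RNAP-ser2 (37778327-37778459, 3.21). Their −log10 q values were 4.41, 2.26 and 1.42, each below 5, and each of these antibodies was listed there in 1 knockout only. No wild-type list had a peak there. It was 1 of the 2 H3K9ac places of Taf6l-KO cells in the cluster, and the only one of the 1556 places with an H3K9ac peak of Taf6l-KO cells, although 2 of the 1556 overlapped one of wild-type cells. RNAP peaks overlapped 151 of the 1556 places in Taf5l-KO cells (9.70%), 208 in Taf6l-KO cells (13.4%) and 122 in wild-type cells (7.84%). The other places were all weaker than the leading one by the lower H3K4me3 value. Shares for places of like strength, and for RNAP-ser2, were not computed. Of the Taf5l-KO H3K4me3 peaks of the cluster with a −log10 q of at least 5, this was the only new one of 25 (4%), against 1.69% of such peaks in the list. It was likewise the only one of 23 in Taf6l-KO cells (4.35%), against 0.627%. Since the window was chosen on this peak, nothing is read from these 2 shares.

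**Figure D5:**
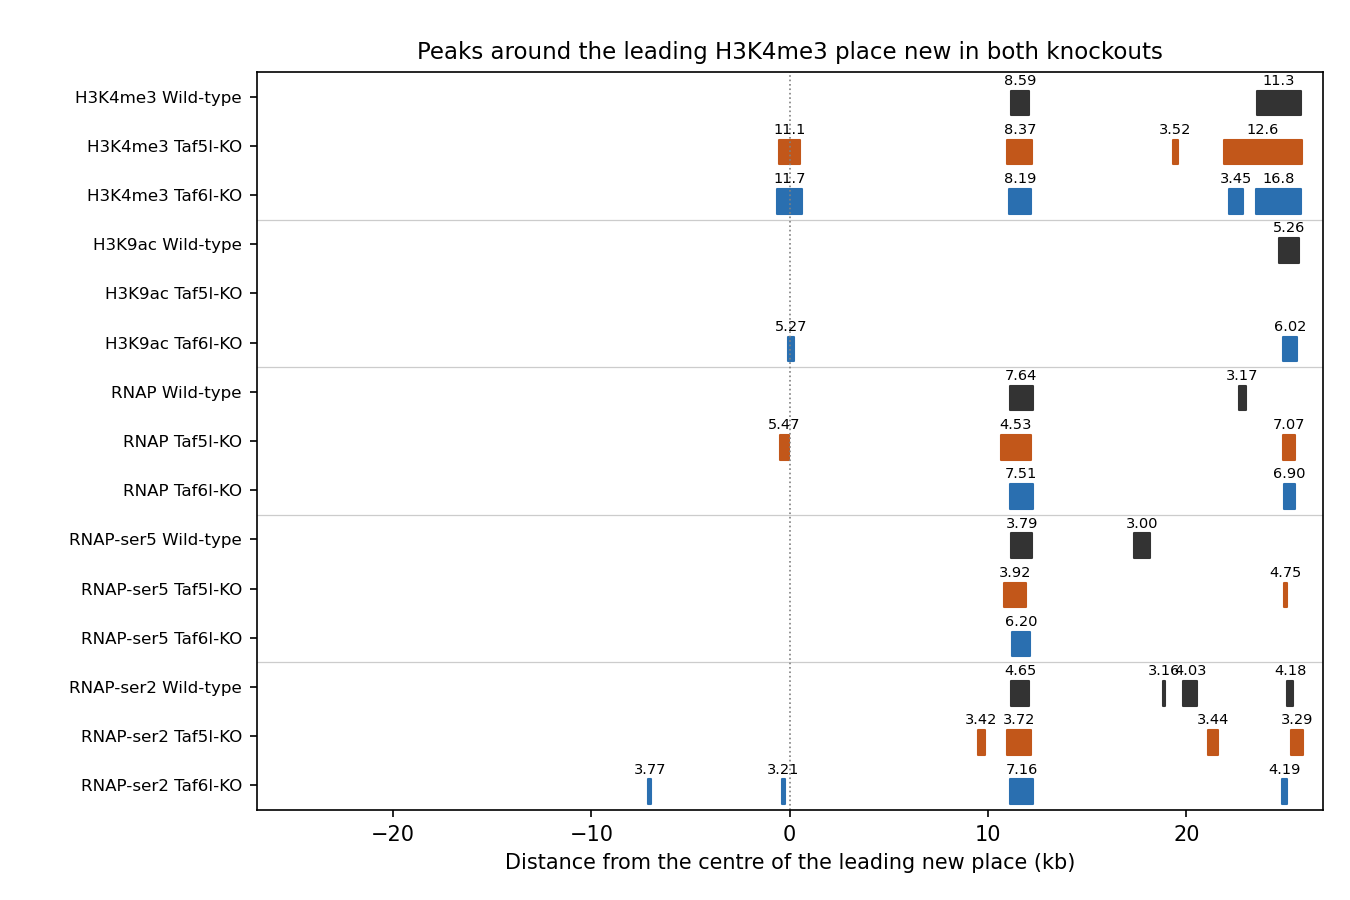
Peaks of 5 antibodies in 3 genotypes around the leading new place, by distance from its centre in kb (horizontal axis). Each bar spans 1 peak and the number above it is the fold enrichment in its own list. At the centre only knockout rows have bars, and the places about 12 and 25 kb to the right have H3K4me3 in all 3 genotypes.

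Of the 12 shares of lost and new polymerase peaks, 10 had the list's value inside the interval, but the intervals are wide, since they rest on 9 to 29 peaks. All 6 shares of new peaks were above those of the lists. Those of lost peaks were below for RNAP and above for both phosphorylated forms. No direction is read from these signs, since most of the list values lie inside the intervals. The shares are also not independent, because each antibody has a single wild-type list that enters every comparison. Of 15 wild-type RNAP peaks 4 were lost in Taf5l-KO cells (26.7%, 7.79 to 55.1, list 47.5%) and 5 in Taf6l-KO cells (33.3%, 11.8 to 61.6, list 39.6%). New RNAP peaks were 11 of 22 in Taf5l-KO cells (50.0%, 28.2 to 71.8), where the list's 27.3% is just below the interval, and 6 of 15 in Taf6l-KO cells (40.0%, 16.3 to 67.7, list 33.2%). Among the 11 was the highest RNAP value of Taf5l-KO cells in the window, 7.07 at the strongest H3K4me3 place. Unique tags of RNAP were 5174150 in wild-type, 15865460 in Taf5l-KO and 7236644 in Taf6l-KO cells. The smaller of the RNAP and input tag counts was 5174150, 6245652 and 5923469, and the redundant fraction of RNAP tags was 0.80, 0.53 and 0.75. The part of depth or redundancy in the new peaks was not tested. Of the 27 RNAP places, 9 were listed in all 3 genotypes (33.3%, 16.5 to 54.0), against 34.6% of all RNAP places.

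The phosphorylated forms overlapped less between genotypes. For RNAP-ser5, 17 of 22 wild-type peaks were lost in Taf5l-KO (77.3%, 54.6 to 92.2, list 73.8%) and 19 of 22 in Taf6l-KO cells (86.4%, 65.1 to 97.1, list 83.5%). New were 8 of 12 (66.7%, 34.9 to 90.1, list 48.3%) and 6 of 9 (66.7%, 29.9 to 92.5, list 52.6%). All 4 list values are within the intervals. For RNAP-ser2, 16 of 24 were lost in Taf5l-KO (66.7%, 44.7 to 84.4, list 63.4%) and 17 of 24 in Taf6l-KO cells (70.8%, 48.9 to 87.4, list 61.3%). New were 14 of 22 Taf5l-KO peaks (63.6%, 40.7 to 82.8, list 49.8%) and 23 of 29 Taf6l-KO peaks (79.3%, 60.3 to 92.0), where the list's 56.7% is below the interval. Only 1 of 35 RNAP-ser5 places (2.86%, 0.0723 to 14.9, all such places 7.75%) and 5 of 56 RNAP-ser2 places (8.93%, 2.96 to 19.6, all such places 14.6%) were listed in all 3 genotypes. The RNAP-ser5 place was the one at chr18:37789506-37790943, where H3K4me3 and every polymerase form were present throughout.

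The pluripotency factor Oct4 had its 1 peak in Taf5l-KO cells, at chr18:37931233-37931378, 146 bp wide with a fold enrichment of 7.80, close to the median of its list (8.03). It was new, as were 50.1% of Oct4 peaks in Taf5l-KO cells. It lay on RNAP peaks of Taf5l-KO cells (37931242-37931865, 6.77) and of wild-type cells (37931318-37931779, 4.13), and no H3K4me3 peak of any genotype lay there. The nearest Oct4 peaks of the other genotypes began at 38546184 in wild-type and 38546181 in Taf6l-KO cells, 526 kb past the end of the window.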

How the data were processed

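Each genotype had 1 immunoprecipitated library per antibody, grouped by the sample labels. The members and stretches described were chosen with earlier results of these data known. The submitters' processing notes name Bowtie2 2.3.2, deepTools 2.5.3 and build mm9. MACS2 2.1.1.20160309 called peaks per library against its input at a q cutoff of 0.05, per the file headers, with broad linking for the histone marks and polymerase. A broad call joins neighbouring enriched stretches, so widths and numbers depend on it. Only 1 tag per position was kept, per the file headers. In each list the authors deposited the peak length in bp, the pileup signal, the fold enrichment (a ratio) and the −log10 p and −log10 q of each peak. Inputs were not analysed here.

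From these lists, peaks that share at least 1 bp with the window were taken (Python 3.11.15, SciPy 1.17.1), and peaks that share at least 1 bp were joined into places. Shares carry exact Clopper-Pearson 95% intervals. No p-value was computed. The overlap step was tested on simulated data: of 2000 simulated peaks, 1411 were made to share a base and 1411 were found. Alternatives were a −log10 q of at least 5, merging of peaks within 1000 bp, a window narrowed by 50000 bp at each end, peak midpoints, 50% coverage, matches within 1000 bp, and each tagged line left out. Named peaks followed a rule: every H3K4me3 place listed in both knockouts only or in wild-type cells only (up to 6 each, by fold enrichment), the 2 strongest peaks of each list, all places with at least 4 antibodies in a genotype, all peaks of lists with at most 5, and every tagged-protein peak. Places at chr18:37703224 and chr18:37720614 were added after their values were seen.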

Additional observations from a re-analysis of the deposited data

How the results depend on the processing

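Of 145 alternative values for 45 results, 101 stayed within 1.5-fold (counts) or inside the exact interval (shares). At a −log10 q of at least 5, H3K4me3 peaks numbered 17 in wild-type, 25 in Taf5l-KO and 23 in Taf6l-KO cells. In the same order RNAP peaks numbered 2, 3 and 4, RNAP-ser5 peaks 0, 0 and 1 and RNAP-ser2 peaks 0, 1 and 2. The H3K9ac peaks, 2 in wild-type and 2 in Taf6l-KO cells, fell to 0 in both. In the window narrowed by 50000 bp at each end, RNAP gave 14 peaks in Taf5l-KO and 8 in Taf6l-KO cells, RNAP-ser5 gave 12 in wild-type and 4 in Taf5l-KO cells, and RNAP-ser2 gave 14 in wild-type and 12 in Taf5l-KO cells, since many polymerase peaks lie in the last 50 kb. With the threshold in the counted list only, H3K4me3 losses were 0% in both knockouts and new peaks 4% and 4.35%. RNAP losses were 0% in both, and new RNAP-ser5 peaks in Taf6l-KO cells and new RNAP-ser2 peaks in both knockouts were 0%. With it in both lists, H3K4me3 losses were 11.8% in Taf5l-KO and 5.88% in Taf6l-KO cells, and new Taf5l-KO peaks were 40.0%. RNAP losses were 100% and 0% (of 2 peaks), new RNAP peaks in Taf5l-KO cells 100%, and new RNAP-ser5 peaks in Taf6l-KO cells and new RNAP-ser2 peaks in both knockouts 100%. These shares rest on few peaks. With 50% of the peak covered, RNAP-ser2 losses in Taf5l-KO cells were 87.5% and new peaks 86.4%. Of 3 alternatives added after the data were seen, the threshold on H3K4me3 raised the overlap with RNAP to 29.4% in wild-type and 52.0% in Taf5l-KO cells, and that with any polymerase form to 58.8% and 52.0%. For 16 shares the stricter threshold left no peak to count. Without replicate 1 or 2 of TAF5L-FB or TAF6L-FB the count of their peaks in the window was 0 and 0. No paired analysis was possible because each antibody and genotype has 1 library.

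The deposited lists give called peaks only, so a peak just under the threshold counts as absent. Depth differed between libraries, from 1702363 unique tags (RNAP-ser5, Taf6l-KO) to 15865460 (RNAP, Taf5l-KO) for polymerase, and a deeper or shallower library lists other weak peaks. The H3K9ac lists of the knockouts are too short to show whether a weak place kept the mark. Differences between the genotypes cannot be told apart from differences between single libraries or single lines.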
